A study of Mus musculus with 12 samples.

Results

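The 10 genes described here encode subunits of Polycomb repressive complex 1 (PRC1): Bmi1, Ring1, Rnf2, Pcgf2, Phc1, Phc2, Phc3, Cbx2, Cbx7 and Cbx8. They are 10 of the 30142 genes that could be named from array rows annotated to a single symbol. Each had 1 such row, so no choice among rows was needed. The values are log2 signals from 12 Affymetrix arrays, in 6 groups of 2, of mouse HoxB8-ER cells. These are bone marrow progenitors of C57BL/6 background, kept dividing by an estradiol-dependent form of the homeobox protein HOXB8.

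Undifferentiated cells, called progenitors here, grew in 0.5 µM estradiol, and neutrophils were made by withdrawing it over 6 days. The 8 genotype arrays held wild-type progenitors, Ezh2-/- progenitors, wild-type neutrophils and neutrophils labelled Ezh2-/-. The 4 drug arrays held wild-type neutrophils treated with vehicle or with GSK343, a small molecule that blocks the methyltransferase activity of EZH2. GSK343 is given as 0.5 µM for 9 days on the samples and as 1 µM in the series text, so its dose is not settled. All groups carry the HOXB8 transgene. Wild-type and Ezh2-/- marrow came from littermates, but the number of lines is not stated, so genotype cannot be told apart from cell line. Nothing says that replicates were separate cultures, so p-values reflect no more than array-to-array spread, possibly technical.

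PRC1 is a family of complexes that keep genes silent. RING1 or RNF2 (also called RING1B), the E3 ligases, attach ubiquitin to histone H2A. A PCGF protein such as BMI1 (PCGF4) or PCGF2 (MEL18) pairs with the ligase and sets which variant is formed. In canonical PRC1 a chromobox (CBX) protein reads the methyl mark that EZH2 lays on histone H3, and a polyhomeotic (PHC) protein compacts the chromatin. In blood, BMI1 is known for keeping stem cells self-renewing, largely by silencing Cdkn2a, and CBX7 and CBX8 for opposite effects on self-renewal and differentiation.

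Bmi1 had the largest genotype difference of the 10 members at both stages. Promoter windows of Bmi1 and Phc1, which were higher in both Ezh2-/- groups, and of Phc3, which rose on differentiation while Bmi1 and Phc1 fell, are shown to set these genes side by side. They are from RefSeq (GRCm38.p6), run 5′ to 3′ on the gene's strand, and span 250 bases before and 50 after the annotated start. Capitals mark the E-box CACGTG, a site that Myc-family factors can bind. Bmi1 is at chr2:18676768-18677067 (+), Phc1 at chr6:122340178-122340477 (-) and Phc3 at chr3:30969366-30969665 (-).
Bmi1: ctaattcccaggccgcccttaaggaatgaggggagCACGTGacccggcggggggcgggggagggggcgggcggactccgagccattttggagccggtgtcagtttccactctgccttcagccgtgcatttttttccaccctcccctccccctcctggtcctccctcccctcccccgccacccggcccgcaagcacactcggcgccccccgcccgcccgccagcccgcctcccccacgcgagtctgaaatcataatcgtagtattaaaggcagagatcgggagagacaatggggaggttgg
Phc1: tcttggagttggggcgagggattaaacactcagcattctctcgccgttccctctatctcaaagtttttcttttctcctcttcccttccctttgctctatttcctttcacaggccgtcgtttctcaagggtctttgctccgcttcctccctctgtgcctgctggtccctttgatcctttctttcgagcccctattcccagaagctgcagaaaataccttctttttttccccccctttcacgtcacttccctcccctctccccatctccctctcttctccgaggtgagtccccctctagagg
Phc3: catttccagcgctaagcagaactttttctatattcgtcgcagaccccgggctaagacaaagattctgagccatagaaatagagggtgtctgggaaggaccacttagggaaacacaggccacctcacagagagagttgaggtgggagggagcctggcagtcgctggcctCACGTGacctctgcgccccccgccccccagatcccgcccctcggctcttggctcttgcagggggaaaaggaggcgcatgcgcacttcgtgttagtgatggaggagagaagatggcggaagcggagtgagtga

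The Bmi1 window held 23 CpG sites and 1 E-box, whose first base is at -215 from the start. The Phc3 window held 15 CpG sites and 1 E-box at -82, and the Phc1 window 9 CpG sites and no E-box, against a median of 7 CpG sites over all windows. RefSeq windows were found for 9 of the 10 members, 11 windows in all. CACGTG, its own reverse complement, was present in 5 of these 11 windows, from Bmi1, Pcgf2, Phc2, Phc3 and Cbx8, and in 7.15% of all 32851 windows. The GC box GGGCGG, read on both strands, was in 9 of the 11, from 8 members (not Phc1), and in 35.7% of all windows. The E2F-type motifs TTTCCCGC and TTTGGCGC, on both strands, were in no member window and in 1.07% and 0.514% of all windows. A TTTCCCGC match can share its last bases with a GC box. The 4 motifs were chosen after the values were seen. A match is a description only.

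**Figure D1:**
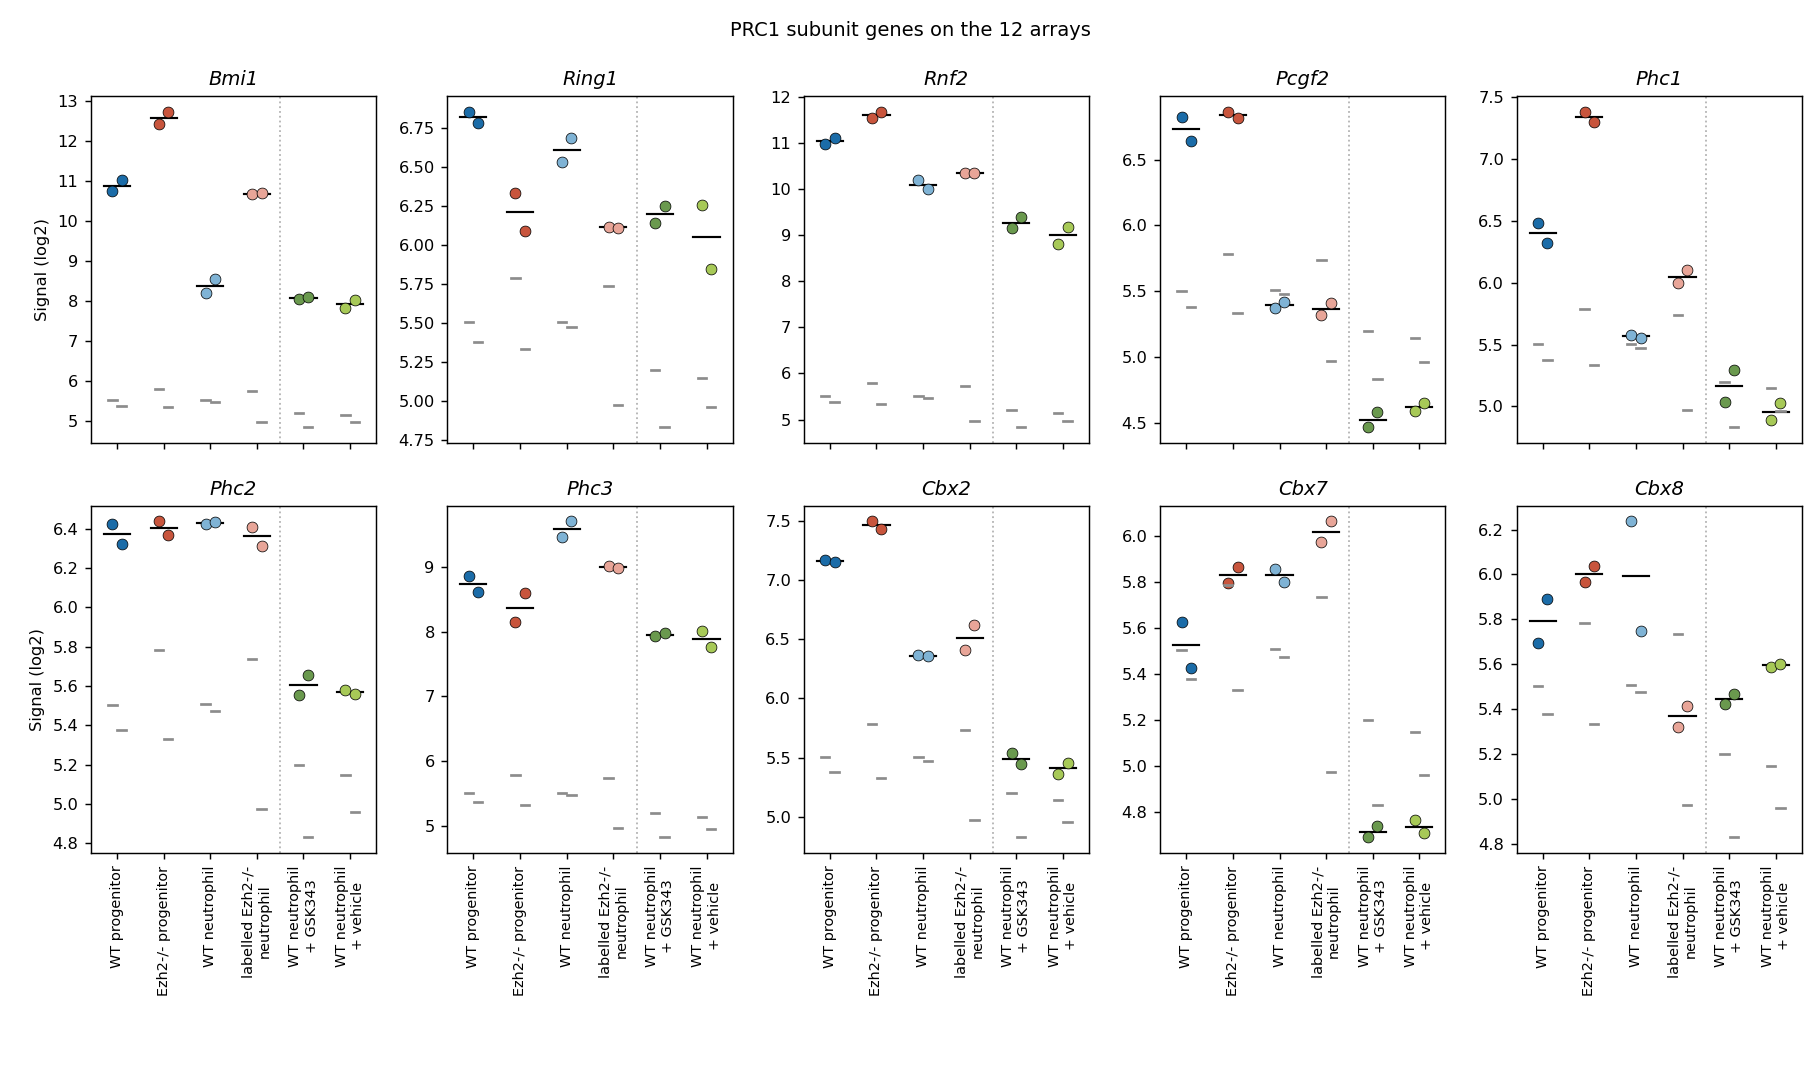
Log2 signal of each PRC1 gene (1 panel each, own vertical scale) on all 12 arrays, grouped on the horizontal axis; points are arrays, black lines group means, grey ticks each array's background limit, and the dotted line separates the 8 genotype arrays from the 4 drug arrays. Bmi1 lies at 12.43 and 12.74 in Ezh2-/- progenitors and at 8.19 and 8.55 in wild-type neutrophils, while Phc2 stays between 6.31 and 6.44 on the genotype arrays.

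Array quality bears on how far these values can be read. The 8 genotype arrays had medians of 4.54 to 4.65 and the 4 drug arrays of 3.88 to 3.96, so levels were compared only within each set. Background was set per array from 23 antigenomic controls, probe sets that match no mouse sequence, at their 95th percentile, and lay between 4.83 and 5.79. Bmi1, Ring1, Rnf2, Phc2, Phc3 and Cbx2 were above it on all 12 arrays, Cbx8 on 11, Phc1 on 10, Cbx7 on 8 and Pcgf2 on 5. With the negative controls' median as the limit, only Bmi1, Rnf2 and Phc3 were above it on every array, and Cbx7 was above it on 1. Ezh2 itself read 11.57 and 11.65 in wild-type and 9.10 and 9.44 in Ezh2-/- progenitors, but 8.31 and 8.34 in wild-type neutrophils and 8.74 and 9.02 in neutrophils labelled Ezh2-/-. It was thus not lower in the last group, so every direction given for those neutrophils rests on their label. Which part of Ezh2 was deleted is not stated, so the array row may read transcript outside it. Across clusters, r between the GSK343 arrays was 0.9935, below the 0.9947 of the closest GSK343 and vehicle arrays. The Ezh2-/- progenitor arrays agreed least of the 6 groups, at r = 0.9843. Their closest match with a wild-type progenitor array was at 0.9825. Array 1 of that group also had the highest background limit, 5.79.

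In Ezh2-/- progenitors, Bmi1 and Phc1 were higher than in wild-type progenitors and none of the other 8 members passed the test. Bmi1 was 3.26-fold and Phc1 1.92-fold higher. With limma and Benjamini-Hochberg adjustment over all 65956 clusters, 2 of 10 members were called higher and none lower, against 2.99% of all clusters called in either direction (1.65% higher, 1.34% lower). Among the 15096 clusters with 1 symbol and above background on at least 2 arrays, 7.92% were called. The median difference over the members was 0.26 log2 units, against -0.01 over all clusters and 0.06 over those 1-symbol clusters above background. These are bulk samples, in which fewer cells of a type and less RNA per cell cannot be told apart.

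Of the PCGF pair, Bmi1 was called in progenitors and Pcgf2 was not; the difference between the genes was not tested. Bmi1 read 10.74 and 11.02 in wild-type and 12.43 and 12.74 in Ezh2-/- progenitors (10.88 ± 0.19 and 12.59 ± 0.22, log2, SD, n = 2), with no overlap (difference 1.71, SE 0.170, adjusted p = 0.000612, limma). Pcgf2, the alternative partner of the ligases in canonical PRC1, read 6.83 and 6.64 against 6.86 and 6.82, and the groups overlapped (0.10, 95% interval -0.15 to 0.36). The Bmi1 call held in all 19 alternatives run, with values from 1.55 to 1.86. Many of them could not move the difference: row averaging changes nothing here, and dropping an array of another group alters only the test.

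Of the polyhomeotic genes, Phc1 was called in progenitors. It read 6.49 and 6.32 in wild-type and 7.38 and 7.30 in Ezh2-/- progenitors, with no overlap (0.94, SE 0.129, adjusted p = 0.00424, limma). Phc2 differed by 0.03 (95% interval -0.21 to 0.27) and Phc3 by -0.37 (-0.77 to 0.02). The Phc1 call was also kept in all 19 alternatives, the highest adjusted p being 0.0468.

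The ligase and chromobox genes were not called in progenitors. Their arrays did not overlap between the genotypes, a description only, without the share over all clusters. Rnf2, the main H2A ligase, read 10.97 and 11.11 against 11.54 and 11.67 in Ezh2-/- progenitors (0.56, adjusted p = 0.126, limma). Its paralog Ring1 ran the other way, at 6.85 and 6.78 against 6.33 and 6.09 (-0.61, adjusted p = 0.0914). Cbx2, Cbx7 and Cbx8 differed by 0.30, 0.31 and 0.21, with adjusted p = 0.295, 0.282 and 0.731 (limma). Before adjustment, 6 of the 10 members, Bmi1 and Phc1 among them, had p under 0.05 (limma). The share of all clusters under that limit was not computed, so the count is not read as a result.

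In neutrophils labelled Ezh2-/-, Bmi1 was 4.98-fold higher than in wild-type neutrophils, and Phc1 and Cbx8 sat at the edge of the test. Bmi1 and Phc1 were called higher and Cbx8 lower, against 11.8% of all clusters called in either direction, 6.75% higher and 5.06% lower. Among the 1-symbol clusters above background, 31.6% were called, so 3 of 10 is close to that background. The members' median difference was 0.06, against -0.03 over all clusters and 0.06 over 1-symbol clusters above background. Scaling changed the split to 1 higher and 1 lower. The lower member was Cbx8 after median centring and Phc3 after further quantile normalization.

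Bmi1 read 8.19 and 8.55 in wild-type neutrophils and 10.68 and 10.69 in those labelled Ezh2-/- (2.32, SE 0.170, adjusted p = 5.22e-05, limma), with no overlap. The call held in all 19 alternatives, with values from 2.14 to 2.50. Over the 4 genotype groups, Bmi1 was highest in Ezh2-/- progenitors. Wild-type progenitors came next and differed from neutrophils labelled Ezh2-/- by 0.19 (adjusted p = 0.529, limma), so the test did not separate these neighbours. That their arrays did not overlap is a description only. Wild-type neutrophils were lowest.

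Phc1 read 5.58 and 5.55 in wild-type neutrophils and 6.00 and 6.10 in those labelled Ezh2-/-, with no overlap (0.48, SE 0.129, adjusted p = 0.0414, limma). The call rested on the settings. It was lost in 14 of 19 alternatives, with adjusted p up to 0.207 without labelled Ezh2-/- array 2, 0.0967 without labelled array 1, and 0.137 and 0.147 without wild-type neutrophil arrays 1 and 2. The wild-type values lay just above background, and the values of both groups lay below the median of the negative controls.

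Cbx8, a chromobox protein of canonical PRC1, read 6.24 and 5.75 in wild-type neutrophils and 5.32 and 5.42 in those labelled Ezh2-/-. Labelled array 1 was under its background limit of 5.74. The values of both groups lay below the median of the negative controls, so the call compares values near background. The groups did not overlap, but the wild-type arrays were farther apart from each other than the nearer of them was from the labelled group (-0.62, SE 0.161, adjusted p = 0.0355, limma). Without wild-type array 1 the difference was -0.38 (adjusted p = 0.197), and without wild-type array 2 it was -0.87 (adjusted p = 0.00716). Leaving out labelled array 1 or 2 gave adjusted p = 0.155 and 0.116, and 10 of the 19 alternatives lost the call.

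The remaining members were not called between the neutrophil groups. Ring1 was at 6.53 and 6.68 in wild-type and at 6.12 and 6.11 in labelled Ezh2-/- neutrophils (-0.49, adjusted p = 0.0806, limma). Phc3 was at 9.46 and 9.70 against 9.02 and 8.98 (-0.58, adjusted p = 0.0657), and was called lower after further quantile normalization (adjusted p = 0.0316) or without either Ezh2-/- progenitor array (adjusted p = 0.028). Rnf2 (0.25), Pcgf2 (-0.03), Phc2 (-0.07), Cbx2 (0.15) and Cbx7 (0.19) had 95% intervals that included 0.

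**Figure D2:**
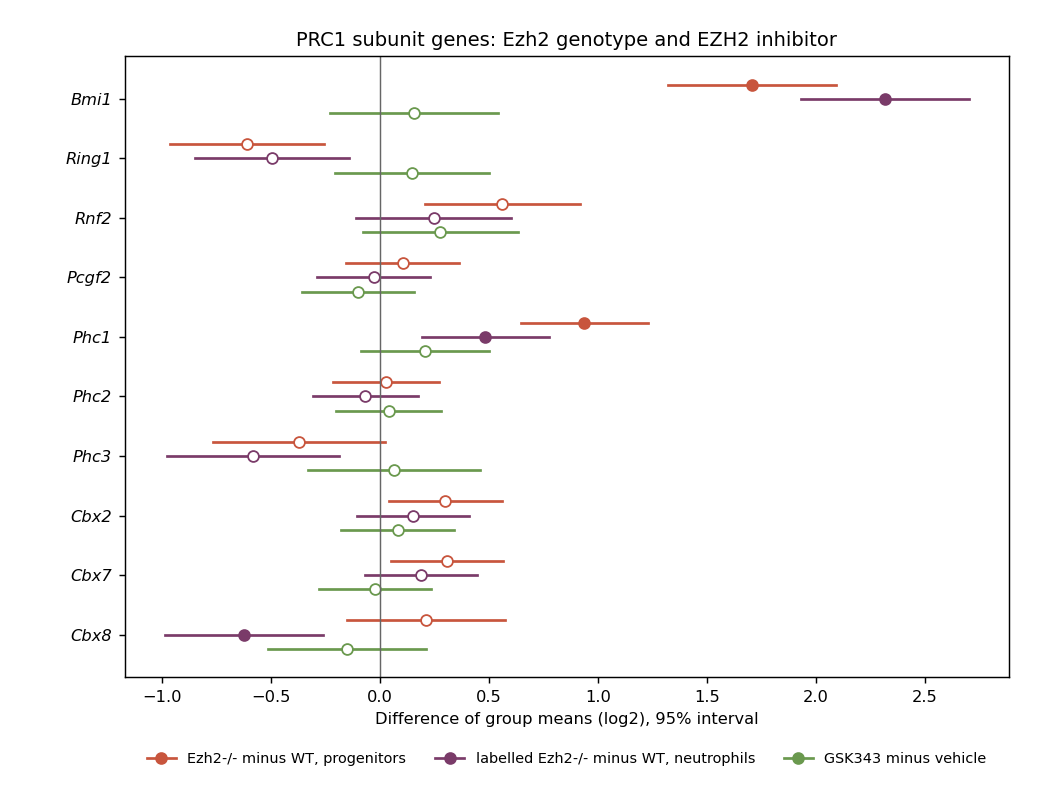
Difference of group means (log2, horizontal axis) for each PRC1 gene in 3 comparisons, with 95% intervals from limma; filled points passed the adjusted p of 0.05 and open points did not. Bmi1 stands at 1.71 and 2.32 in the genotype comparisons and at 0.16 with GSK343, whose 10 intervals all include 0.

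The neutrophils labelled Ezh2-/- also differed from wild-type neutrophils in markers of other cells. All 7 cycling cell markers measured were higher, with a summed signal of 17.40 to 17.62 (log2) against 14.17 to 15.12. All 7 mast and basophil markers (19.38 to 19.42 against 12.04 to 13.63) and all 7 erythroid markers (17.39 to 17.62 against 7.84 to 7.86) were higher too, as were 4 of 7 progenitor markers (13.22 to 13.83 against 10.46 to 10.59). Of 8 neutrophil markers, all were above background in both groups and 2 were lower (20.03 to 20.40 against 20.62 to 21.17), and 3 of 7 macrophage markers were lower (15.27 to 15.73 against 16.45 to 17.60). Their part in the Bmi1, Phc1 and Cbx8 differences was not tested. In progenitors, where Bmi1 and Phc1 were also higher, none of the 7 cycling markers was called (16.38 to 16.99 in Ezh2-/- against 16.85 to 17.15), and none of the 4 lymphocyte markers was above background on any array. Other markers did move there: 2 of 8 neutrophil markers were higher (10.10 to 12.48 against 8.44 to 8.94) and 2 of 7 progenitor markers lower (18.38 to 18.45 against 18.77 to 18.88). Among erythroid markers 1 of 7 was higher, and 1 of 7 macrophage and 1 of 7 mast and basophil markers were lower. The part of these markers was not tested either.

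The genotype effect was compared between stages as an interaction, and no member was called, against 4.41% of all clusters (2.77% higher, 1.65% lower) and 12.9% of 1-symbol clusters above background. Before adjustment 3 members had p under 0.05 (limma), and the share of all clusters under that limit was not computed. For Bmi1 the genotype difference was 0.61 larger in neutrophils (95% interval 0.07 to 1.15, adjusted p = 0.25), and for Phc1 it was 0.45 smaller (interaction -0.45, interval -0.87 to -0.04, adjusted p = 0.262). For Cbx8 the interaction was -0.83 (adjusted p = 0.0838), and its size depended on the wild-type neutrophil arrays. Without wild-type neutrophil array 1 it was -0.59 (adjusted p = 0.183), and without wild-type neutrophil array 2 it was -1.08 and was called (adjusted p = 0.0166). All 3 interactions take the neutrophil labels as given.

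No member passed the test with GSK343. None of the 10 was called by limma, and none had an unadjusted p under 0.05, with 0.00152% of all clusters (1 cluster, higher; none, 0%, lower) and 0.00662% of 1-symbol clusters above background called. Bmi1 read 8.05 and 8.11 with GSK343 and 7.81 and 8.03 with vehicle, and the lower GSK343 array lay just above the higher vehicle array (0.16, 95% interval -0.23 to 0.54). The differences ran from -0.15 for Cbx8 to 0.28 for Rnf2, and the widest upper limit was 0.63, for Rnf2. Pcgf2 and Cbx7 were under background on all 4 drug arrays, so no fold is given for them. Cycling marker signal was 16.56 to 16.89 with GSK343 and 15.95 to 16.30 with vehicle, none of 7 being called. Mast and basophil marker signal was 15.06 to 15.11 against 13.58 to 13.63, with 1 of 7 called. Progenitor marker signal was 12.08 to 12.15 against 10.74 to 10.85, none of 7 being called. Neutrophil marker signal was 21.3 to 21.8 against 21.9 on both vehicle arrays, none of 8 being called. No macrophage or erythroid marker was called. The part of these markers was not tested. The members' median difference was 0.07, against 0.00 over all clusters and 0.07 over 1-symbol clusters above background.

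The genotype and drug differences in neutrophils use separate arrays, and their difference was tested. For Bmi1 it was 2.16 (SE 0.241, adjusted p = 0.00156, limma), higher with the genotype label, and it held in all 18 alternatives that gave a value. The other 9 members were not called, against 3.3% of all clusters (1.97% higher, 1.33% lower) and 9.61% of 1-symbol clusters above background called. Ring1 (-0.64, adjusted p = 0.211) and Phc3 (-0.65, adjusted p = 0.269) had intervals below 0 before adjustment.

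Differentiation of wild-type progenitors lowered Bmi1, Rnf2, Pcgf2, Phc1 and Cbx2 and raised Phc3. Of 10 members 5 were called lower and 1 higher, against 25.3% of all clusters called in either direction (12.2% lower, 13% higher) and 59.4% of 1-symbol clusters above background. The share of members called is therefore close to that of other detected genes. The members' median was -0.50, against 0.03 over all clusters and -0.23 over 1-symbol clusters above background.

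Both PCGF genes and the ligase gene Rnf2 fell. Bmi1 fell 5.70-fold, from 10.88 ± 0.19 to 8.37 ± 0.26 (log2, SD, n = 2; difference -2.51, SE 0.170, adjusted p = 8.45e-06, limma). Pcgf2 fell at least 2.37-fold, to 5.37 and 5.42, under background on both wild-type neutrophil arrays (adjusted p = 2.85e-05). Rnf2 fell 1.93-fold, to 10.20 and 9.99 (adjusted p = 0.0016), while Ring1 was not called (-0.21, 95% interval -0.56 to 0.14). The neutrophil and progenitor arrays did not overlap for any of these 4 genes, a description only, without the share over all clusters.

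Of the polyhomeotic genes, Phc1 fell by 0.84 log2 units (adjusted p = 0.00103, limma). Phc3 rose from 8.86 and 8.62 to 9.46 and 9.70, with no overlap (0.84, SE 0.174, adjusted p = 0.00579). Without wild-type progenitor array 2 the Phc3 value was 0.72 and the call was lost (adjusted p = 0.0524). Phc2 stayed at 6.42 and 6.43 in neutrophils (0.05, 95% interval -0.19 to 0.30).

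Of the chromobox genes, Cbx2 fell from 7.16 and 7.15 to 6.36 on both arrays (-0.80, SE 0.114, adjusted p = 0.000661, limma). Both neutrophil values of Cbx2 lay above background but below the median of the negative controls. Cbx7 read 5.62 and 5.42 in progenitors and 5.86 and 5.80 in neutrophils (0.30, adjusted p = 0.0868), near background throughout. In RefSeq Cbx2 overlaps Gm35829 and Cbx7 overlaps Apobec3, so signal from sequence shared by overlapping genes cannot be assigned here. Cbx8 was not called (0.20, adjusted p = 0.475).

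In the Ezh2-/- series the same comparison gave 6 members lower and 1 higher, against 22.4% of all clusters (10.7% lower, 11.7% higher) and 50.1% of 1-symbol clusters above background. The members' median was -0.79, against 0.01 over all clusters and -0.28 over 1-symbol clusters above background. Bmi1 fell by 1.90 log2 units (adjusted p = 6.27e-05, limma), Rnf2 by 1.26, Pcgf2 by 1.48, Phc1 by 1.29 and Cbx2 by 0.95, each call held in all 19 alternatives. Cbx8 fell by 0.63 (adjusted p = 0.0195), lost when any 1 of the 4 arrays compared was left out (adjusted p from 0.0544 to 0.102). Phc3 rose by 0.63 (adjusted p = 0.0283), but the call was lost after median centring, which leaves 6 lower and none higher. It was lost as well without Ezh2-/- progenitor array 1, where the value was 0.41, and without labelled neutrophil array 1 or 2 (adjusted p = 0.117 and 0.0976). The labelled neutrophil values of Cbx8 are those given above, near background and on array 1 under it. The difference between the genotypes in these changes is the interaction given above.

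**Figure D3:**
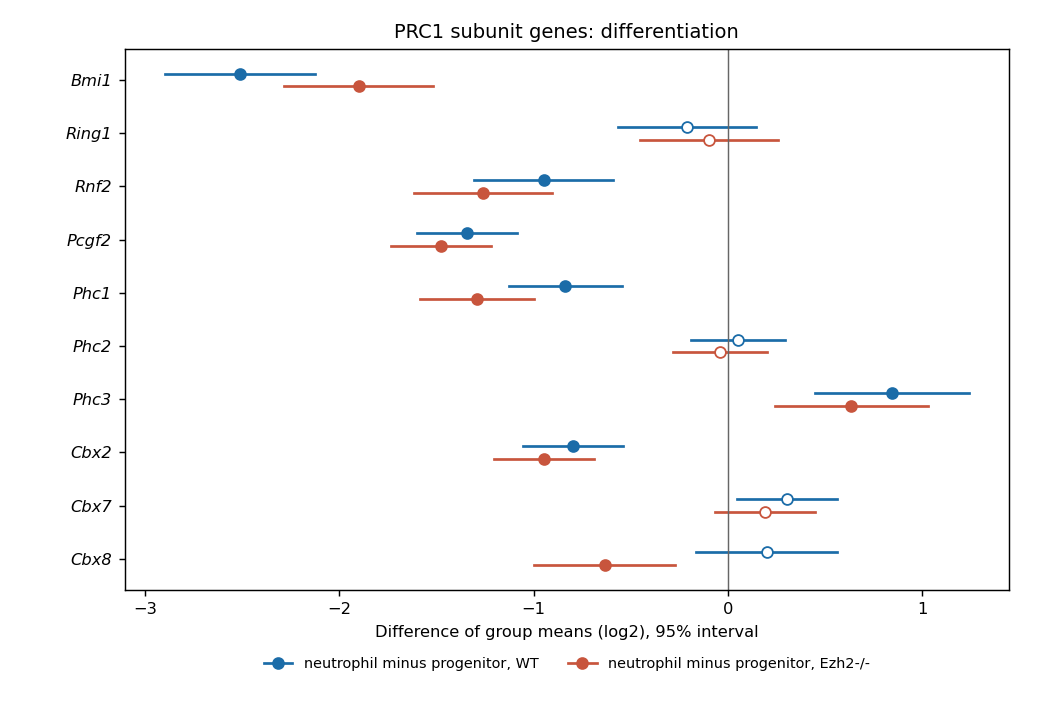
Difference between neutrophils and progenitors (log2, horizontal axis) for each PRC1 gene in wild-type cells and in the Ezh2-/- series, with 95% intervals from limma; filled points passed the adjusted p of 0.05. Bmi1, Rnf2, Pcgf2, Phc1 and Cbx2 lie below 0 and Phc3 above it in both series, and the Cbx8 point is open at 0.20 in wild-type cells and filled at -0.63 in the Ezh2-/- series.

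Differentiation in wild-type cells also moved the cell markers. All 7 cycling markers and all 7 progenitor markers fell, and all 8 neutrophil markers rose. Of 7 macrophage markers 6 rose (16.45 to 17.60 summed in neutrophils against 10.44 to 10.52 in progenitors), while 3 of 7 mast and basophil markers and 1 of 7 erythroid markers fell. In the Ezh2-/- series 3 of 7 cycling markers fell and 1 rose, while 6 of 7 progenitor markers fell and all 8 neutrophil markers rose. All 7 mast and basophil and all 7 erythroid markers rose there as well, and 6 of 7 macrophage markers (15.27 to 15.73 against 8.76 to 8.97). Their part in the PRC1 changes was not tested.

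The wider PRC1 family was read from a list of 17 other subunit genes, of which 13 had a row of their own. In Ezh2-/- progenitors 2 were higher and 1 lower. Scmh1, a PRC1-associated sex comb protein, differed by 0.86 and E2f6, the DNA-binding factor of a non-canonical complex, by 0.79 (adjusted p = 0.0146, limma), while Auts2, which joins a PCGF3 or PCGF5 complex, was lower by 1.23 log2 units (-1.23, adjusted p = 0.000335). In neutrophils labelled Ezh2-/- 4 were higher and 1 lower. E2f6 was higher by 1.30 (7.80 and 7.97 against 6.48 and 6.69, adjusted p = 0.000364), its non-canonical partner Pcgf6 by 1.00 and L3mbtl2 by 0.66. Kdm2b (0.44), the CpG-binding demethylase of a PCGF1 complex, and Yaf2 (-0.63), named after their values were seen, made up the rest. None was called with GSK343. On differentiation 8 of 13 fell and 1 rose in wild-type cells, with Pcgf6 at -2.74, Auts2 at -2.42 (at least 3.33-fold) and L3mbtl2 at -2.03, and 9 of 13 fell in the Ezh2-/- series. Among all 1-symbol clusters above background, 7.92% were called by genotype in progenitors, 31.6% in neutrophils, and 59.4% and 50.1% on differentiation in wild-type cells and in the Ezh2-/- series, so the list's counts in neutrophils and in wild-type differentiation are near that background.

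**Figure D4:**
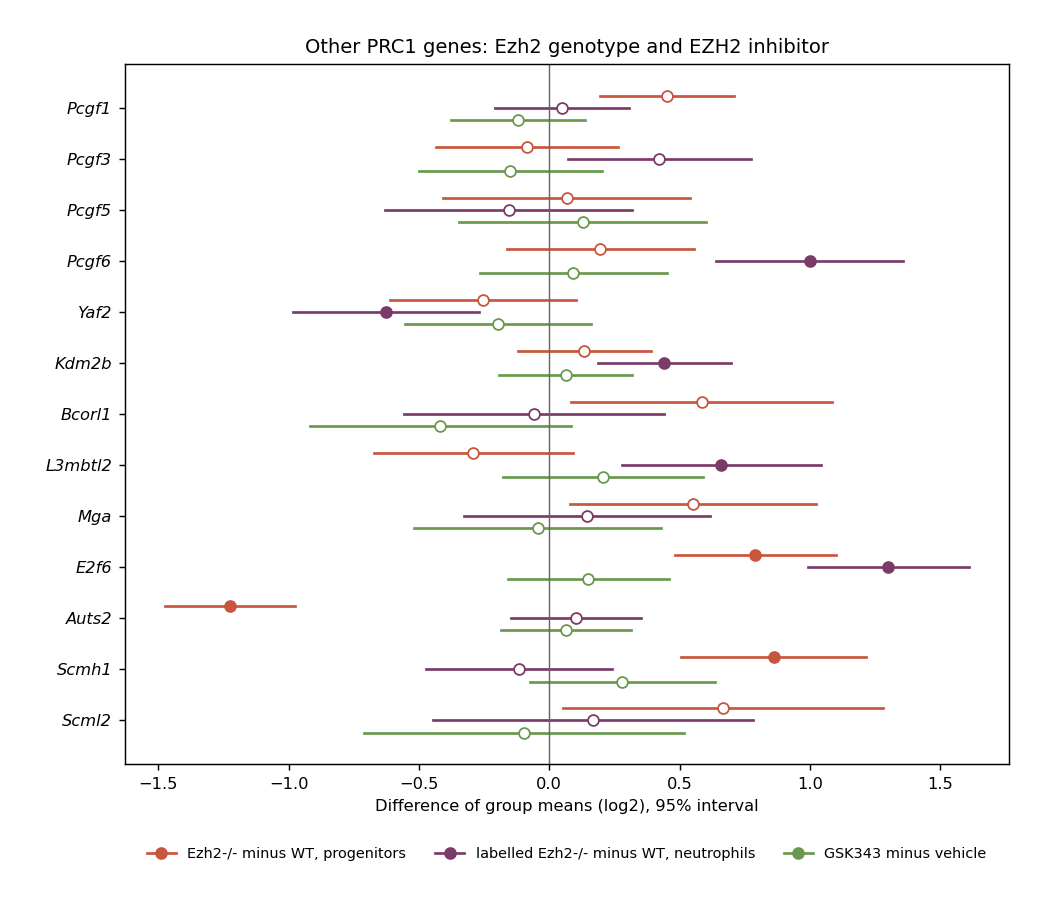
Difference of group means (log2, horizontal axis) for the 13 other PRC1 genes in the genotype comparisons and with GSK343, with 95% intervals from limma; filled points passed the adjusted p of 0.05. E2f6 is filled in both genotype comparisons, at 0.79 and 1.30, and no GSK343 point is filled.

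Genes around the PRC1 mark were read from shorter lists. None of 6 H2A deubiquitinase genes, whose products remove the ubiquitin that PRC1 adds, was called by genotype or drug. In wild-type differentiation Bap1 (-1.07) and Usp16 (-0.35) fell and Mysm1 rose (1.31). There 25.3% of all clusters and 59.4% of 1-symbol clusters above background were called, so this count is no larger than that background. Of 11 PRC2 genes, 1 was higher and 1 lower in Ezh2-/- progenitors (Phf19 at 1.22, Ezh2 at -2.34), and 2 were higher and 2 lower in labelled Ezh2-/- neutrophils, among them Phf1 (-2.35) and Rbbp7 (1.40). The neutrophil count of 4 in 11 is near the 31.6% called among 1-symbol clusters above background. In progenitors 7.92% of those clusters were called, and the lower gene was Ezh2 itself.

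Cdkn2a, which encodes the INK4A and ARF inhibitors and is silenced by BMI1 and CBX7 in many cells, was higher in both genotype comparisons. It read 7.49 and 7.61 in wild-type and 8.94 and 9.25 in Ezh2-/- progenitors (1.55, SE 0.218, adjusted p = 0.00471, limma). In neutrophils it read 7.53 and 6.96 in wild-type and 9.35 and 9.84 in labelled Ezh2-/- arrays (2.35, adjusted p = 0.000184). The groups did not overlap at either stage. It was under background on all 4 drug arrays. Its neighbour Cdkn2b was under background on all but 1 of the 12 arrays and was not called.

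Commd3, which lies next to Bmi1 in RefSeq, was read after the Bmi1 values were seen. It was at 9.36 and 9.35 in wild-type and 9.51 and 9.29 in Ezh2-/- progenitors (0.05, adjusted p = 0.959, limma), and differed by 0.00223 between the neutrophil groups. With GSK343 it was 0.30 higher than with vehicle and was not called, although its unadjusted p was under 0.05 (limma). Commd3 fell on differentiation by 0.49 in wild-type cells (adjusted p = 0.0209, limma) and by 0.53 in the Ezh2-/- series.

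**Figure D5:**
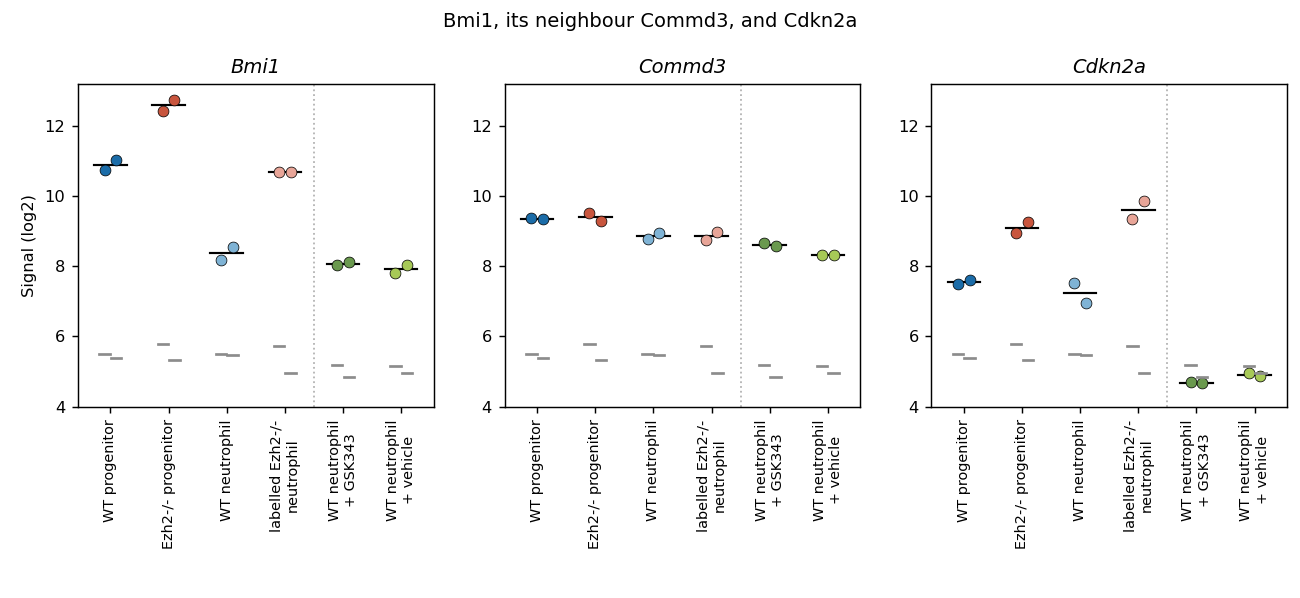
Log2 signal (vertical axis, shared) of Bmi1, its RefSeq neighbour Commd3, and Cdkn2a on all 12 arrays; points are arrays, black lines group means, grey ticks background limits, and the dotted line separates genotype from drug arrays. Bmi1 and Cdkn2a are higher in both Ezh2-/- groups than in the wild-type group of the same stage, and Commd3 overlaps.

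The genes most like each member over the 8 genotype arrays were taken by Euclidean distance between log2 values centred on each gene's mean, among 30142 genes. For Bmi1, the member with the widest range, the nearest were Tdrkh (0.92), Adgrl1 (0.93) and Gm16585 (0.93). For Cbx2 they were Sdhaf1 (0.10), Etv4 (0.20) and Mettl5 (0.24), for Phc1 Mprip (0.29), Clpb (0.32) and Cox11 (0.42), and for Rnf2 Bcl7c (0.22), Tsen54 (0.28) and Prdm11 (0.28). A gene that varies little has near neighbours for that reason alone, as Phc2 (0.07 to Trmt9b) shows. No member was among the 3 nearest genes of another.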

How the data were processed

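Total RNA (250 ng per sample) was hybridised to Affymetrix Mouse Transcriptome Array 1.0, per the labels. Deposited log2 signals were available for each transcript cluster and control probe set. Per the submitters' processing notes, 2 Affymetrix programs were used, Transcriptome Analysis Console and Expression Console; the sources used here give no version, summarisation method or build. The log2 values were used as the authors deposited them. Genotype and drug arrays have different medians and look separately normalized.

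Of 72688 entries, 6732 control probe sets were left out, and 65956 clusters were fitted with limma 3.58.1 in R 4.3.3 (means of 6 groups over all 12 arrays, moderated by eBayes, residual degrees of freedom 6, prior 3.06). Adjusted p-values are Benjamini-Hochberg over all clusters, called under 0.05. Duplicate mentions of 1 symbol in a row were counted once, and symbols were updated by Entrez ID through RefSeq. A fold is written "at least" where the dimmer group lay at or under background on both arrays: the brighter mean was set against the mean of, per array, the higher of background and signal. Summed marker signals are log2 of summed linear signals. The number of arrays limits the precision.

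All 10 members are named throughout; of other lists, up to 3 called genes per comparison, those with the largest differences. The members, lists and comparisons were chosen with earlier results of these data known. The fit was checked on simulated data. Tests of neighbours in the order of groups, Commd3 and the motifs were added later. Alternatives were the replicate number as a block, other scalings, a dim-cluster filter, fewer arrays, a variance trend, row averaging and leaving out each array.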

Additional observations from a re-analysis of the deposited data

Results flagged for a closer look

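The Bmi1 difference between neutrophils labelled Ezh2-/- and wild-type neutrophils was larger than that between GSK343 and vehicle, by 2.16 log2 units (SE 0.241, adjusted p = 0.00156 in the limma fit of all clusters). The direction rests on the label of those neutrophils, whose Ezh2 signal was no lower than that of their wild-type counterparts. Bmi1 was higher on both labelled arrays than on both wild-type neutrophil arrays, while the GSK343 difference was 0.16.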

How the results depend on the processing

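Each count of members called was recomputed under 7 other settings, where they applied, and without each of the 12 arrays; a lone array was then assumed to vary like the other groups. No member changed direction with a call. Counts of members called by genotype in progenitors (2), with GSK343 (0) and in the test of genotype label against drug (1) did not move. In neutrophils the genotype count was 3, became 1 when only the 8 genotype arrays were fitted, and ranged from 1 to 4 without 1 array. The replicate number as a block also left 1, Bmi1. The numbers carry no stated pairing, and replicate deviations of the 6 groups correlated at -0.25 to 0.19, so the block is not read as a weaker effect; it changed no other count by over 1.5 times. The count of interactions, 0, ranged from 0 to 1 without 1 array. Differentiation counts, 6 in wild-type cells and 7 in the Ezh2-/- series, ranged from 5 to 6 and from 5 to 7. Averaging rows changed nothing, since each member had 1 row. Leaving out an array outside a comparison moved its p-values but not its differences, so the alternatives are not independent checks. Members above background on all arrays numbered 6, and 3 with the negative control median as the limit; where a call was lost the cause was not tested. Signal over background limits Pcgf2, Cbx7, Phc1 and Cbx8 most. Over all clusters, calls by genotype in progenitors went from 1969 to 1061 and interactions from 2911 to 1352 with the genotype arrays alone, and calls with GSK343 from 1 to as many as 8 with median centring (2 or 3 under the filter, block, trend and quantile settings). Leaving out 1 array moved the background counts too, in both directions. Without either Ezh2-/- progenitor array, calls rose for genotype in progenitors, genotype label in neutrophils and wild-type differentiation. They rose as well for interactions and for label against drug. Calls by genotype in progenitors fell to 962 and 1060 without wild-type progenitor array 1 or 2. Calls by genotype label in neutrophils, 7791, fell to 4023 without labelled Ezh2-/- array 2 and 4922 without wild-type array 1. Interactions fell to 1511 and 1636 without wild-type progenitor array 2 or 1, and to 1610 without labelled Ezh2-/- neutrophil array 2. Calls for label against drug, 2177, fell to 947 and 1080 without vehicle array 2 or 1, to 1099 and 1176 without GSK343 array 2 or 1, and to 1254 without labelled Ezh2-/- array 2. Calls with GSK343 ranged from 0 to 2.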

Other observations

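In wild-type neutrophils Cdkn2a was read against each array's own background limit, within each array set. It was above the limit on both genotype arrays (7.53 and 6.96, limits 5.51 and 5.47). It was under the limit on all 4 drug arrays, with GSK343 or vehicle (4.67 to 4.96, limits 4.83 to 5.20). Of all clusters, 35.0% and 36.0% were above the limit on those genotype arrays and 28.8% to 32.3% on the drug arrays. Bmi1 was well above the limit on all of these arrays. The array sets look separately normalized, so no fold is given and no difference between the sets is read from this.

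Pcgf2 was the only member under the background limit on both wild-type neutrophil arrays and all 4 drug arrays, and above it on all 4 progenitor arrays. It was above the limit on 1 of the labelled Ezh2-/- neutrophil arrays, at 5.41 against a limit of 4.97. The wild-type neutrophil arrays read 5.37 and 5.42 against higher limits of 5.51 and 5.47, so the signals were alike.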
